A study of Mus musculus with 2 samples.

Results

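The 6 muscle myosin heavy chain genes Myh3, Myh8, Myh1, Myh2, Myh4 and Myh7 were examined among 32285 genes in 1 RNA library and 1 ATAC library, made by the spatial joint assay SPARC-seq. The tissue was labelled as brain of C57BL/6 mouse embryos at E18.5 that were homozygous for the CRISPR/Cas9-made mutation CTCF-R567W in Ctcf, the gene of the architectural protein CTCF. With a single homozygous library for each assay, no replicate and no wild type analysed here, no difference could be attributed to the mutation and no test across samples was possible. The genes were chosen by name after their UMI counts in this library had been seen, so their RNA values are given as a description. The ATAC fragments at their promoters did not enter that choice.

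Of 1993 barcodes in the count matrix, 1992 passed the filters and are called spots. A spot barcode joined 2 segments of 8 bases, and 50 first segments and 48 second segments occurred, so each second segment is read as 1 line of the spot grid. This reading came from the barcodes, because no spot positions were used here. The spots held 8711132 UMIs, with a median of 4157 per spot and a range of 907 to 12442, and a median of 21705 ATAC fragments. A spot can hold several cells of different types. Levels are given as CPM, the UMIs of a gene scaled to 1000000 UMIs. Over second segments with at least 20 spots, summed neuron markers ran from 3315 to 5777 CPM, and skeletal muscle fibre markers other than Myh genes from 4925 to 22643 CPM. The libraries labelled as brain therefore held muscle RNA in every such line. Fewer cells of a type and less RNA per cell cannot be told apart in spots.

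Myosin heavy chains are the motor subunits of the thick filament, and a muscle fibre changes the form it uses as it matures. Myh3 encodes the embryonic form and Myh8 the perinatal form. Myh2, Myh1 and Myh4 encode the adult fast forms IIa, IIx and IIb, and Myh7 encodes the slow form, which is also made in the heart. The fast and developmental genes lie in tandem on mouse chromosome 11 in the order Myh3, Myh2, Myh1, Myh4, Myh8 and Myh13, and Myh7 lies beside its heart paralog Myh6 on chromosome 14.

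In GRCm38 the annotated starts on the plus strand of chromosome 11 were 67078300 for Myh3 (ENSMUSG00000020908), 67171027 for Myh2 (ENSMUSG00000033196), 67200052 for Myh1 (ENSMUSG00000056328), 67238029 for Myh4 (ENSMUSG00000057003) and 67277124 for Myh8 (ENSMUSG00000055775). Myh7 (ENSMUSG00000053093) started at 54994626 on the minus strand of chromosome 14. The cluster from Myh3 to the end of Myh13 spanned 293 kb, and 68.7 kb without a member separated the end of Myh3 from the start of Myh2. All 6 members matched an entry in the RefSeq promoter sequences of GRCm38.p6.

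The upstream sequences showed which members share promoter letters. Within the 250 bases before the RefSeq start, Myh8, Myh1, Myh2 and Myh4 shared an identical stretch of 14 bases, which only these 4 of 32851 RefSeq promoters held on either strand. It began 54 bases before the start of Myh8, 160 before Myh1, 125 before Myh2 and 158 before Myh4, all counted from RefSeq starts, which for Myh1 and Myh4 lie 50 and 217 bases from the GENCODE starts given above. It is shown in capitals, with 20 bases on each side, to let the 4 neighbours be compared.
Myh8: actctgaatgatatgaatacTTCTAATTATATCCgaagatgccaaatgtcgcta
Myh1: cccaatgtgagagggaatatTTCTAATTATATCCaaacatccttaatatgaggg
Myh2: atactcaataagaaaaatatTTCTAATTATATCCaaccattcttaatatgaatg
Myh4: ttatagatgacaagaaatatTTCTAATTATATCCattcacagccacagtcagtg

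The perinatal and embryonic promoters, which belong to the most abundant members, had little in common, and their longest shared stretch was 8 bases. Both are shown on the plus strand, with capitals for matches to the E-box CANNTG, the TATA box TATAAA, the M-CAT motif CATTCC, the MEF2 motif and the CArG box, each searched on both strands. The Myh8 sequence covers chr11:67276874-67277123 and the Myh3 sequence chr11:67078050-67078299.
Myh8: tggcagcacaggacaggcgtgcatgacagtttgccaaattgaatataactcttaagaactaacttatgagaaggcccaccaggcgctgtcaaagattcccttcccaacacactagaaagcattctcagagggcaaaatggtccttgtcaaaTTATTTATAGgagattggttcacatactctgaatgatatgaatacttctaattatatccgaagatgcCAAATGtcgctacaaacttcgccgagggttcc
Myh3: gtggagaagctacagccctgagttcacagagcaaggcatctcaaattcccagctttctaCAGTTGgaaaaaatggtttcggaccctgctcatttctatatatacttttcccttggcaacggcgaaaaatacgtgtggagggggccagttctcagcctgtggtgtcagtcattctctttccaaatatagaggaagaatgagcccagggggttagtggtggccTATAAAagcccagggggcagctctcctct

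The Myh8 promoter held 1 MEF2 match, which also contains its only TATA box match on the other strand, and 1 E-box. MEF2 matches occurred in 2.92% of all promoters. Myh1 and Myh4 held the same MEF2 letters within a 15-base stretch shared with Myh8 and found in only these 3 promoters. Myh3, Myh2 and Myh7 held no MEF2 match in this window. Myh3 held 1 E-box and 1 TATA box, motifs found in 66.2% and 12.4% of all promoters. Of the 6 members only Myh4 had a CArG box match, found in 1.47% of promoters. M-CAT matches, found in 12.6%, occurred once each in Myh1, Myh4 and Myh7. These matches describe letters only.

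The perinatal form was the most abundant by a wide margin. Myh8 gave 8989 UMIs, 1032 CPM (95% exact Poisson interval 1011 to 1053), and ranked 56 among all genes by UMIs. Myh3, the embryonic form, gave 1765 UMIs, 203 CPM (193 to 212), and ranked 859. Myh7, the slow form, gave 306 UMIs, 35.1 CPM (31.3 to 39.3). The 3 adult fast forms were rare: Myh1 had 102 UMIs and 11.7 CPM (9.55 to 14.2), Myh2 39 UMIs and 4.48 CPM (3.18 to 6.12), and Myh4 29 UMIs and 3.33 CPM (2.23 to 4.78). The intervals of Myh2 and Myh4 overlapped, and all other neighbours in this order were separated. All intervals here cover counting error only.

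Scaled to transcript length, the order stayed the same, because the 6 transcripts are all close to 6 kb. Myh8 reached 168 CPM per kb of transcript, Myh3 33.6, Myh7 5.73, Myh1 1.93, Myh2 0.736 and Myh4 0.553.

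**Figure D1:**
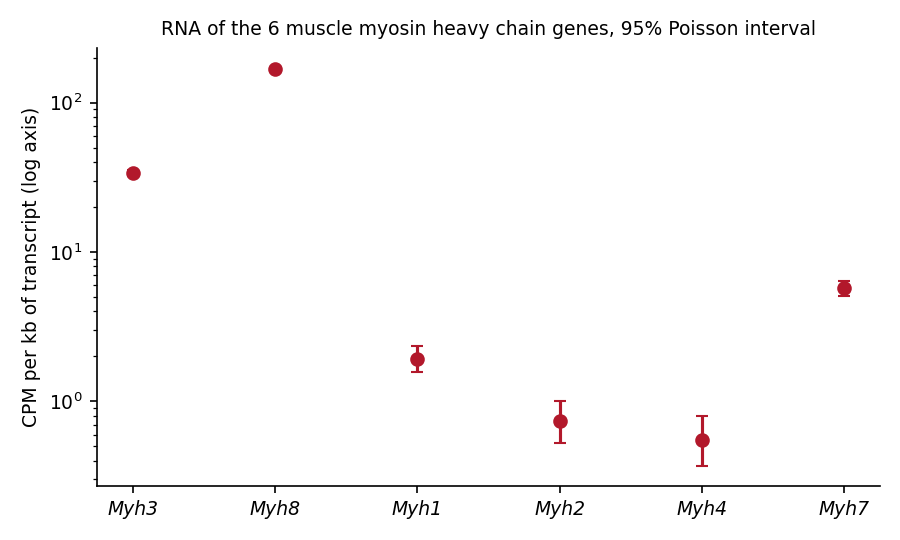
RNA of the 6 genes over 1992 spots, as CPM per kb of transcript on a log axis, with 95% exact Poisson intervals from the counts. Myh8 lies highest at 168 and Myh3 next at 33.6, while Myh2 and Myh4 at 0.736 and 0.553 have overlapping intervals.

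Of the 11230 UMIs of the 6 genes, Myh8 made up 80.0% (95% Clopper-Pearson interval 79.3 to 80.8), Myh3 15.7% (15.0 to 16.4), Myh7 2.72% (2.43 to 3.04), Myh1 0.908% (0.741 to 1.1), Myh2 0.347% (0.247 to 0.474) and Myh4 0.258% (0.173 to 0.371). The developmental forms Myh8 and Myh3 thus held nearly all the UMIs, with 5.09 Myh8 UMIs for each Myh3 UMI. The paralogs are alike in sequence. Of the 50-base stretches in the last 500 bases of each transcript, 16% of Myh1 and of Myh2 and 32.6% of Myh7 also occurred in another Myh transcript, so the split of Myh1 from Myh2, and of Myh7 from Myh6, is uncertain. The figures were 1.33% for Myh8 and 0 for Myh3. The antisense gene Myhas, which overlaps Myh1, gave 3 UMIs, and the strand setting of the counting is not given in the sources used here.

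Other myosin heavy chains were present for comparison. The non-muscle forms Myh10 and Myh9 gave 1281 and 850 UMIs and Myh14 198, while the smooth muscle form Myh11 gave 55. Myh15 had 32 UMIs, Myh7b 23, the extraocular form Myh13 18 and the heart form Myh6 16. Ctcf itself gave 734 UMIs, 84.3 CPM.

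Myh8 UMIs were found in most of the tissue. A Myh8 UMI was counted in 1824 of 1992 spots (91.6%), with at most 50 in 1 spot and a median of 3. Myh3 was counted in 945 spots (47.4%), with at most 16, Myh7 in 12.8%, Myh1 in 4.72%, Myh2 in 1.81% and Myh4 in 1.41%. With each spot thinned to 2000 UMIs, which left 1831 spots, the shares were 78.3% for Myh8, 28.8% for Myh3, 6.68% for Myh7 and 2.34% for Myh1. No spot class free of muscle RNA was available as a background for these shares. Markers of tissues outside the head, a list of 7 genes, reached 14.3 CPM in all outside the 6 muscle-rich segments described next and 26.6 CPM within them, with up to 66.8 CPM in 1 of them, and Ins1 of that list was at 0. The part of stray RNA in the Myh shares was not tested.

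Both developmental forms were counted in 893 spots, Myh8 without Myh3 in 931, and Myh3 without Myh8 in 52. A further 104 spots had no UMI of the 6 genes.

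The RNA was concentrated in 6 second barcode segments. These 6 held 279 spots, 14% of all spots and 17.3% of all UMIs, but 41.2% (40.3 to 42.1) of the UMIs of the 6 genes. They were the first 6 by summed Myh UMIs, by summed Myh CPM and by CPM of 39 sarcomere genes that include no Myh gene. Numbered by falling Myh CPM, segments 1 to 6 had Myh8 levels of 3154, 2502, 2358, 2538, 2183 and 1937 CPM. In the 38 other segments with at least 20 spots Myh8 ran from 489 to 1181 CPM, with a median of 712. Myh3 was 697, 607, 543, 357, 574 and 425 CPM in segments 1 to 6 and 67.6 to 218 CPM, median 133, in the 38 others. Neither gene overlapped between the 2 sets of segments, and 0.311% of the 15739 genes with at least 20 UMIs likewise had all 6 above all 38. The 6 were picked by these genes' own UMIs, so nothing is read from that. Myh7 did overlap, at 91.2, 105, 82.9, 36.0, 94.9 and 84.4 CPM in segments 1 to 6 and 0 to 57.3 CPM in the 38 others. Of 8 heart muscle markers, Ryr2, which neurons also use, gave most UMIs, at 140 CPM in the 6 and 180 CPM elsewhere. The other 7 summed to 17.3 and 12.9 CPM, a ratio of 1.34 (0.832 to 2.09).

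**Figure D2:**
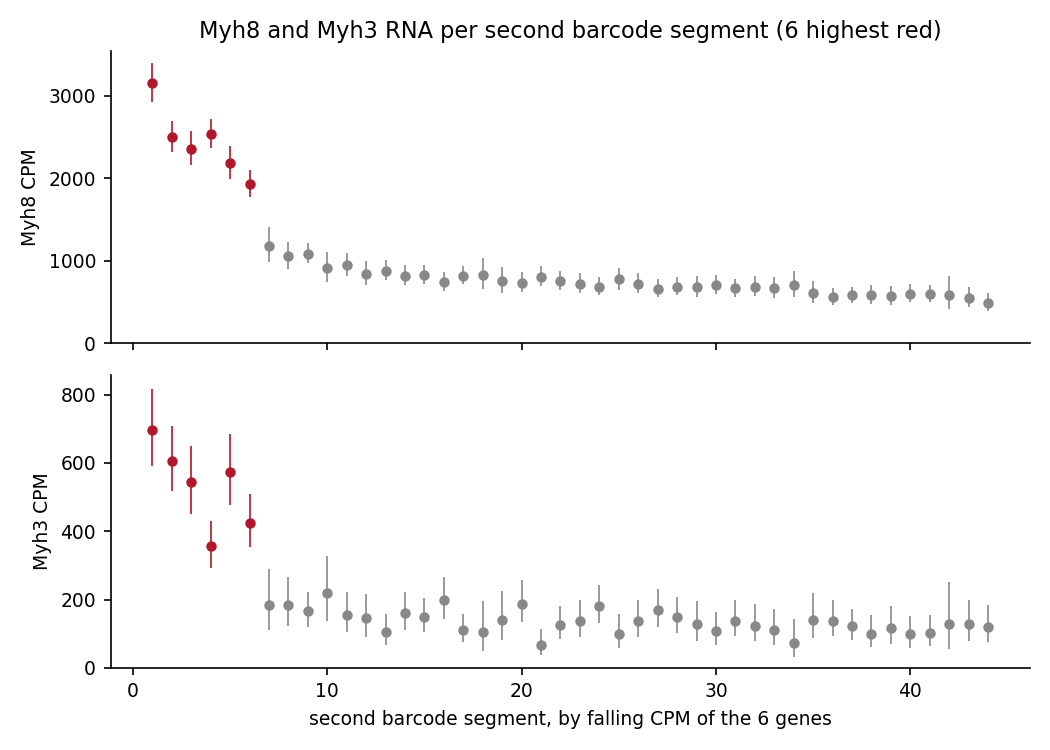
Myh8 (top) and Myh3 (bottom) CPM in the 44 second barcode segments with at least 20 spots, ordered by falling CPM of the 6 genes, with 95% exact Poisson intervals. The 6 highest segments (red) lie at 1937 CPM or more for Myh8 and 357 or more for Myh3, above all other segments (grey).

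The rate in these segments over all others was 3.83 for Myh3 (95% conditional binomial interval 3.48 to 4.21), 3.29 for Myh8 (3.15 to 3.43), 3.13 for Myh7 (2.47 to 3.96), 2.97 for Myh1 (1.94 to 4.49) and 3.33 for Myh2 (1.65 to 6.59). Myh4, with 9 UMIs in the 6 segments and 20 elsewhere, had a ratio of 2.16 (0.864 to 4.95), which its counts did not separate from 1. The intervals of Myh3 and Myh8 did not overlap, Myh3 having the higher ratio. All 6 ratios were past 2-fold, as were those of 7.57% of the genes, whose median was 0.998, and the choice of the segments by Myh UMIs enters these values. By comparison Myh9 had a ratio of 1.83 (1.57 to 2.13) and Myh10 0.809 (0.688 to 0.946). A single spot of the 6 segments had no UMI of the 6 genes, against 103 elsewhere.

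Other values moved with these segments. The median spot had 4885 UMIs in the 6 segments and 4015 elsewhere, and 37976 fragments against 20509. Summed fibroblast markers were 3179 against 1155 CPM, cartilage and bone markers 223 against 110 CPM, and neuron markers 3643 against 5296 CPM. Of the smooth muscle markers Des, which is also in the sarcomere list, gave most UMIs, and without it they summed to 118 against 70.5 CPM. The members differed. Mylk had a ratio of 1.85 (1.49 to 2.29) and Acta2 1.89 (1.27 to 2.76). Myh11 was at 0.699 (0.267 to 1.55), Tagln at 0.860 (0.325 to 1.94) and Cnn1 at 2.40 (0.217 to 16.7), intervals that held 1. Gm42418, a transcript overlapping ribosomal RNA sequence, took 6.51% to 6.98% of UMIs in segments 1 to 6 and 4.04% to 6.42% in the 38 others. The part of these in the Myh levels was not tested.

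Along the other axis the range was narrower. Over the 49 first barcode segments with at least 20 spots, Myh8 ran from 773 to 1667 CPM with a median of 947, and Myh3 from 72.4 to 456 CPM.

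The balance of the embryonic and perinatal forms moved little between muscle-rich and muscle-poor tissue. Myh8 made up 82.4% (81.2 to 83.5) of the Myh3 and Myh8 UMIs in the 6 segments and 84.5% (83.5 to 85.3) in the others, intervals that lay side by side without overlap. Between sarcomere-rich and other spots, split by sarcomere genes, it was 82.5% (81.3 to 83.8) and 84.1% (83.3 to 85.0), which overlapped. Single segments differed more. Over the 49 first segments with at least 20 spots the share ran from 73.1% (61.8 to 82.5) to 92.7% (87.3 to 96.3), intervals that lay apart. Over the 44 second segments with at least 50 UMIs of both genes it ran from 78.8% to 92.3% with a median of 84.1%. The highest of these (87.4 to 95.7) lay outside the 6. Within the 6, the Myh8 share of segment 4 was 87.7% (85.3 to 89.8), above the intervals of each of the other 5, which together had 81.0% (79.7 to 82.3). Its Myh7 share of the 6 genes was 1.21% (0.606 to 2.15), against 2.96% (2.44 to 3.55) in those 5 pooled, but its interval overlapped those of segments 1, 2, 3 and 5 taken singly. Segment 4 had 38 spots and 305704 UMIs, and its erythroid markers, at 9666 CPM, were the highest of the 6. It was singled out after its values were seen, and the part of the erythroid RNA was not tested.

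**Figure D3:**
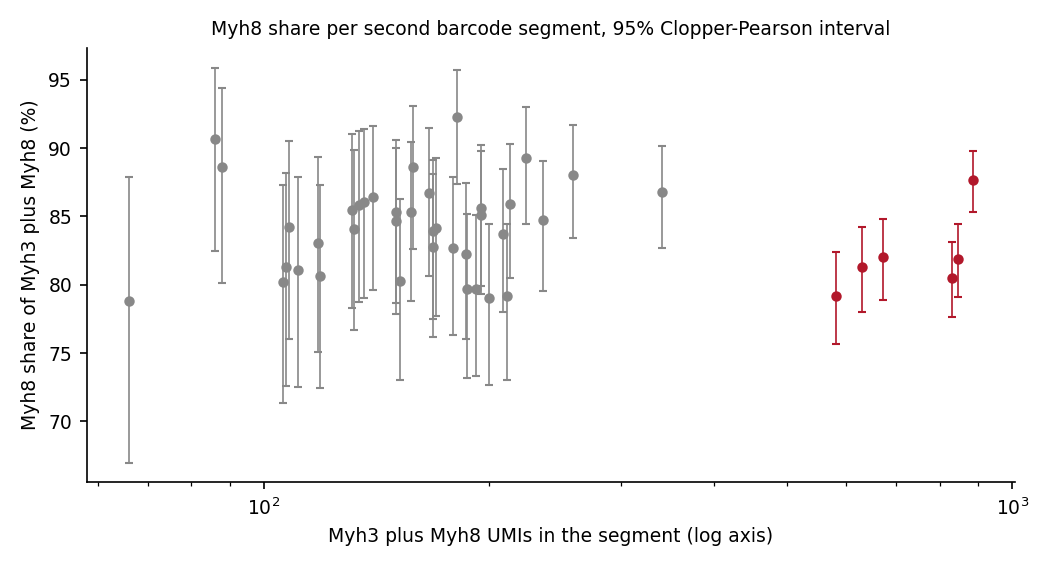
Myh8 share of Myh3 plus Myh8 UMIs (percent) against the UMIs of both genes (log axis) in the 44 second barcode segments with at least 50 such UMIs, with 95% Clopper-Pearson intervals. Among the 6 muscle-rich segments (red) 1 lies at 87.7%, above the other 5. The remaining segments (grey) spread from 78.8% to 92.3% with wide intervals, and that of the highest (87.4 to 95.7) lies above those of several others.

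To set RNA beside chromatin, spots were split by the summed CPM of the 39 sarcomere genes. The highest 10%, 200 spots, are called sarcomere-rich, and 191 of them lay in the 6 segments. The spot just inside the limit had 12102 CPM of these genes and the spot just outside 12091. Over 10 bins of rising sarcomere CPM, Myh8 went from 615 CPM (561 to 672) in the lowest to 2975 (2869 to 3083) in the highest, and Myh3 from 113 (90.7 to 139) to 630 (582 to 681). Most of the difference lay in the last bins, since Myh8 was 1257 CPM and Myh3 258 CPM in the bin just below the highest. The Myh8 share of both stayed between 82.5% and 86.1% over all 10 bins.

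In sarcomere-rich spots the RNA of Myh3 was 4.29-fold (3.89 to 4.73) that of other spots, Myh8 3.82-fold (3.66 to 4.0), Myh7 3.61-fold (2.81 to 4.61), Myh2 3.40-fold (1.57 to 6.94) and Myh1 3.34-fold (2.12 to 5.16). Myh4 was at 2.43-fold (0.879 to 5.90). All 6 were thus past 2-fold, as were 6.05% of the 15739 genes with at least 20 UMIs, whose median ratio was 0.977. This split shares its library with the choice of the genes and is a description. Myh9 had a ratio of 1.71 (1.42 to 2.03), Myh10 0.879 (0.729 to 1.05) and Myh13 3.83 (1.18 to 11), the last from 6 and 12 UMIs.

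Promoter accessibility did not follow RNA in the same way for each member. Within 1 kb of the start, Myh8 had 31 fragments in the sarcomere-rich spots and 48 in the others, or 28.6 and 9.45 for each 1000000 promoter fragments, a ratio of 3.03 (1.86 to 4.86). Myh4, a gene with almost no RNA, had 13 and 23 fragments and a ratio of 2.65 (1.23 to 5.46). The start of the antisense gene Myhas, at 67237573, lies in the same window, so these fragments cannot be credited to Myh4 alone. These 2 were past 2-fold, as were 2.46% of 28555 promoters with at least 20 fragments, whose median ratio was 0.977. Myh3 had 9 and 40 fragments, a ratio of 1.06 (0.45 to 2.21), and under the alternatives tried it ran from 0.892 with a window of 2 kb on each side to 1.87 with the highest 5% of spots. Myh1 was at 1.21 (0.510 to 2.56), from 9 and 35, and Myh2 at 0.977 (0.291 to 2.61), from 5 and 24. Myh7 had 18 and 132 fragments and a ratio of 0.640 (0.368 to 1.05). For Myh3, Myh1, Myh2 and Myh7 the intervals held 1, so no difference was detectable at this depth. The intervals of Myh3 and Myh7 lay below those of their RNA ratios. By fragments in all kept spots, the windows of Myh3, Myh8 and Myh7 were at percentiles 24.2, 33.8 and 48.3 of coding genes. The part of background fragments in these promoter ratios was not tested. The intervals of Myh8 and Myh3 overlapped, and those of Myh8 and Myh7 did not.

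The 2 members past 2-fold both belong to the group with the shared 14-base stretch printed above, as do Myh1 and Myh2, which were not past it. A link of this stretch to accessibility was not tested. The sarcomere-rich spots were more deeply covered, with a median of 37248 fragments against 20854, and 54.3% of their fragments were shorter than the DNA of 1 nucleosome against 46.0%. The part of coverage and fragment length in the ratios was not tested. With the 6 segments in place of the sarcomere-rich spots, a comparison chosen after seeing the data, Myh8 was at 2.69 and Myh4 at 1.72 (0.802 to 3.55), which its counts did not separate from 1. With the highest 20% of spots Myh4 was at 1.39.

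Over whole gene bodies, Myh8 fragments were also more frequent in the sarcomere-rich spots, with 160 and 481 fragments and a ratio of 1.65 (1.37 to 1.97). Myh7 was less frequent, at 0.766 (0.614 to 0.948). The other members lay between 0.897 and 1.15 with intervals that held 1.

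**Figure D4:**
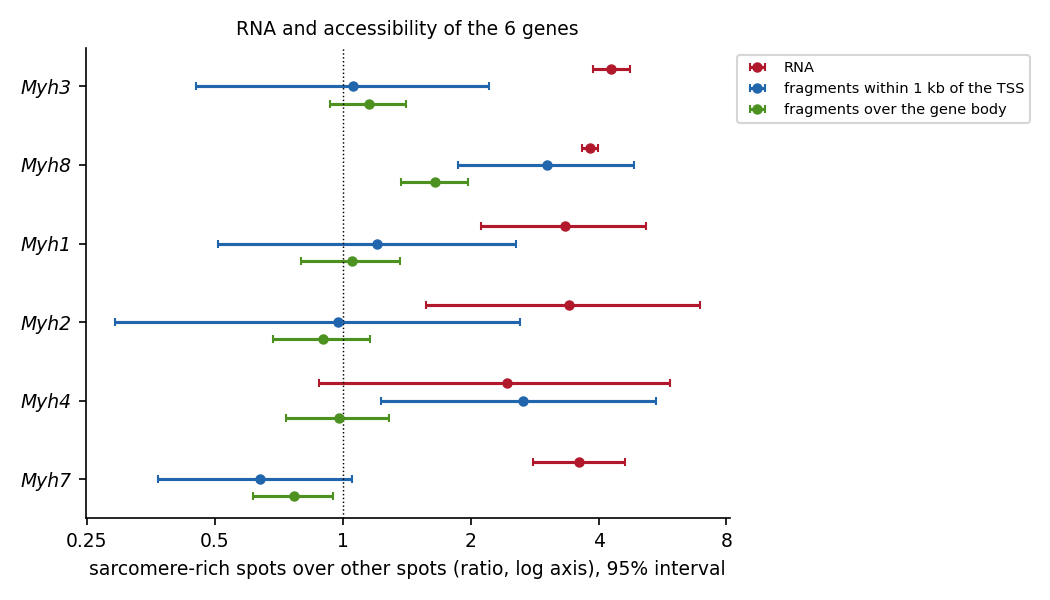
Ratio of sarcomere-rich to other spots (log axis) for RNA, for fragments within 1 kb of the start and for fragments over the gene body of the 6 genes, with 95% conditional binomial intervals and a dotted line at 1. RNA lies at 2.43 to 4.29 for all 6, while the start regions of Myh8 and Myh4 alone have intervals above 1.

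Called peaks were sparse in the clusters. Within 20 kb of the chromosome 11 cluster there were 10 peaks and within 20 kb of Myh7 there were 4, and only Myh8 had a peak over its start. That peak, at chr11:67276629-67277672, held 60 cut sites in the sarcomere-rich spots and 68 in the others, a ratio of 4.24 (2.95 to 6.09). Cut sites come mostly in pairs from 1 fragment, so intervals from fragments are the more cautious. By fragments the peak held 30 and 36, a ratio of 4.13 (2.46 to 6.89). Over all 91103 peaks with at least 20 cut sites, 7.69% were at least 2-fold higher and 16.5% at least 2-fold lower in the sarcomere-rich spots, with a median ratio of 0.938.

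Of the 10 peaks on chromosome 11, 3 were at least 2-fold higher and 2 at least 2-fold lower by cut sites. Beside the Myh8 start peak, the higher ones lay between Myh3 and Myh2 and beyond Myh13. The first, at chr11:67125155-67125984, had a ratio of 2.02 by cut sites (1.15 to 3.42) and 1.95 by fragments (0.874 to 4.03), an interval that held 1. The second, at chr11:67390651-67391537, was centred 69.4 kb past the Myh13 start in no annotated gene. It had a ratio of 3.0 (1.84 to 4.84), or 2.94 by fragments (1.48 to 5.65). Its neighbour at chr11:67386780-67387640 was lower, with 2 cut sites against 157 and a ratio of 0.0612 (0.00735 to 0.225), or 0.114 by fragments (0.0136 to 0.424). The other lower peak, at chr11:67190141-67191089 over exon and intron sequence of Myh2, had a ratio of 0.418 (0.148 to 0.957) by cut sites and 0.413 (0.0813 to 1.31) by fragments. The remaining 5 had ratios from 0.687 to 1.99 by cut sites. The highest of these was the peak at chr11:67357926-67358814 within Myh13, at 1.93 by fragments (1.01 to 3.52). The intergenic peak at chr11:67379740-67380595 was at 1.91 by cut sites (1.22 to 2.93) but past 2-fold by fragments, at 2.07 (1.13 to 3.67).

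At Myh7, 3 of the 4 peaks were at least 2-fold lower in the sarcomere-rich spots. The peak nearest its start, at chr14:54995328-54996259, was centred 1.17 kb upstream and lay partly within the 1 kb promoter window counted above. It held 14 cut sites against 272, a ratio of 0.247 (0.134 to 0.422), or 0.275 by fragments (0.117 to 0.557). The peaks at chr14:54989863-54990737 within Myh7 and chr14:54973872-54974731 over Myh7 and the antisense transcript Mhrt were at 0.117 (0.0239 to 0.351) and 0.262 (0.111 to 0.529). The fourth, at chr14:55003523-55004428 and centred 9.35 kb upstream in no annotated gene, was higher. It held 40 cut sites against 80, a ratio of 2.40 (1.60 to 3.56), or 2.27 by fragments (1.30 to 3.83). Myh7 RNA was 3.61-fold in the same spots.

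The middle 200 bases of the 3 peaks outside genes that were at least 2-fold higher by cut sites, on the plus strand with the same motifs in capitals, are shown to give the letters behind these ratios. They cover chr11:67125470-67125669, chr11:67390994-67391193 and chr14:55003876-55004075.
peak between Myh3 and Myh2: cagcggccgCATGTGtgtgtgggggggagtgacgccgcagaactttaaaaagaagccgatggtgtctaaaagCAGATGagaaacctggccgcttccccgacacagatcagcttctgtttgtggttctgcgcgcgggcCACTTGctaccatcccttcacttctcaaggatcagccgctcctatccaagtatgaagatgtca
peak past Myh13: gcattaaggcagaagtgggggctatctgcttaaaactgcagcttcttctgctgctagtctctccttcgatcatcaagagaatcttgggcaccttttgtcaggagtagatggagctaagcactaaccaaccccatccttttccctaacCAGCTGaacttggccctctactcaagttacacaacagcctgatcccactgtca
peak upstream of Myh7: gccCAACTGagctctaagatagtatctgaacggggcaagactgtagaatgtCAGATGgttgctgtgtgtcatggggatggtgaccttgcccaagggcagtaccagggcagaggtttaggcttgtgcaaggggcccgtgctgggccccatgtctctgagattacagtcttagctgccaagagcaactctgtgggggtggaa

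They held 3, 1 and 2 E-boxes in this order and no other motif searched. An E-box was present in the middle 200 bases of 66.4% of all 91150 peaks read.

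Along the chromosome 11 cluster in bins of 5 kb, the bin that began 195 kb from the Myh3 start, and that holds the Myh8 start, had the largest ratio, with 38 and 68 fragments and 2.77 (1.81 to 4.18). Of the 64 bins, 4 were past 2-fold, as were 1.46% of 486817 bins of the genome with at least 20 fragments, whose median ratio was 0.956. The bin that began at 185 kb, between Myh4 and Myh8, was at 2.57 (1.24 to 5.07), with 14 and 27 fragments, and the bin at 235 kb, past the end of Myh8, at 2.0 (1.14 to 3.38). The bin that began 25 kb from the Myh3 start, just past the end of that gene, was at 2.14 (1.49 to 3.03), with 48 and 111 fragments, and held no called peak.

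**Figure D5:**
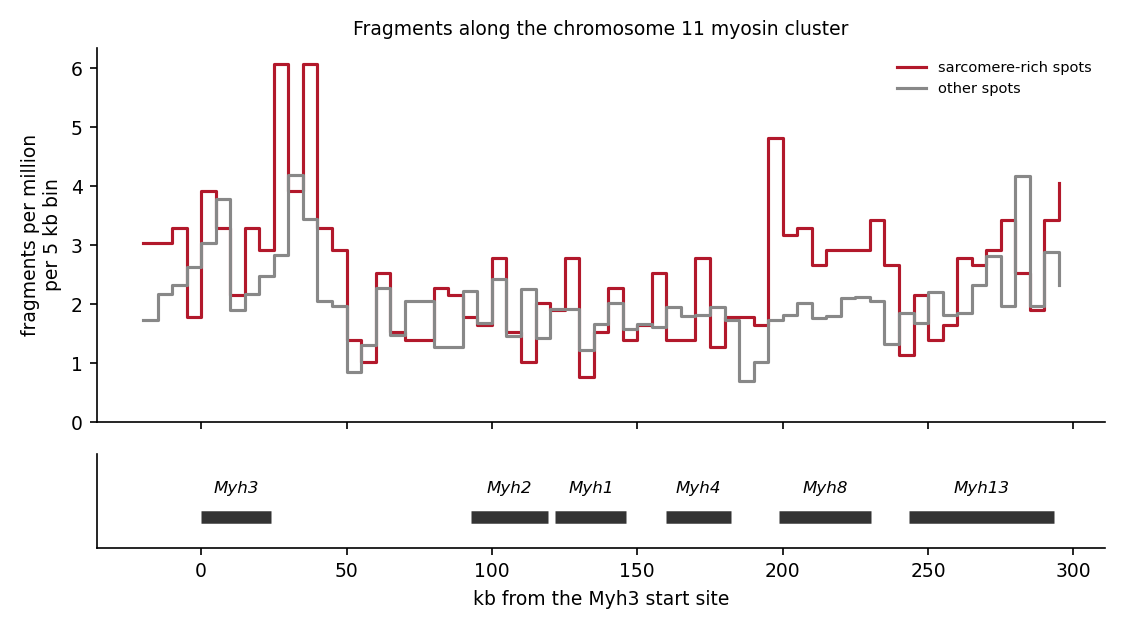
Fragments for each 1000000 of the group of spots in bins of 5 kb along the chromosome 11 cluster, by kb from the Myh3 start. The sarcomere-rich spots are red and the other spots grey, above bars for Myh3, Myh2, Myh1, Myh4, Myh8 and Myh13. The largest ratio, 2.77, is in the bin of the Myh8 start at 195 kb.

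Genes of the muscle programme were counted in the 200 spots with the highest summed CPM of the 6 genes, called Myh-rich, against the other 1792. These spots were chosen by Myh RNA, so the values describe what accompanied it. Of the 15739 genes tested, 5.23% were at least 2-fold higher and 5.36% at least 2-fold lower, with a median ratio of 0.976. Of 39 sarcomere genes, 36 were at least 2-fold higher and none lower, with a median of 3.06. The fast light chain gene Mylpf was at 3.16 (3.01 to 3.31), the fast troponin C gene Tnnc2 at 3.48 (3.31 to 3.67), skeletal actin Acta1 at 3.29 (3.11 to 3.47) and titin, Ttn, at 2.68 (2.52 to 2.84).

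Of 12 myosin folding and assembly genes measured, 10 were at least 2-fold higher and none lower, with a median of 3.08. The small heat shock genes Cryab, Hspb1 and Hspb7 were at 3.05 (2.55 to 3.62), 3.11 (2.59 to 3.71) and 3.98 (3.03 to 5.20), and Klhl40, a thin filament stabiliser, at 2.61 (1.79 to 3.74). The myosin chaperone gene Unc45b was at 3.22 (1.64 to 5.99), from 15 and 38 UMIs, and is named here after its value was seen.

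Excitation-contraction genes were at least 2-fold higher in 10 of 17, with none at least 2-fold lower and a median of 2.75. Ryr3, which had most UMIs of this list and is named after its value was seen, was at 0.809 (0.692 to 0.941). The calcium pump gene Atp2a1 was at 3.39 (2.96 to 3.88), its inhibitor Sln at 2.79 (2.44 to 3.19), Srl of the sarcoplasmic reticulum at 3.95 (3.34 to 4.65) and the calcium store gene Casq2 at 3.02 (2.51 to 3.62).

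Neuromuscular junction genes were at least 2-fold higher in 6 of 10, with none at least 2-fold lower and a median of 2.23. Chrng, the fetal acetylcholine receptor subunit, was at 3.98 (2.28 to 6.78), Musk, the junction kinase, at 3.09 (1.39 to 6.37), Colq at 3.20 (1.44 to 6.63) and Chrnb1 at 2.72 (1.24 to 5.51). Of the 4 fusion genes measured 2 were at least 2-fold higher, Mymk at 2.68 (1.62 to 4.30) and Cdh15 at 2.86 (1.77 to 4.48). None was at least 2-fold lower, and the median was 1.89. Against spots with no UMI of the 6 genes, the median was 1.04 for the fusion genes and 1.53 for the junction genes.

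Of the myogenic regulators, 6 of 17 were at least 2-fold higher and none at least 2-fold lower, with a median of 1.38. Prox1, named after its value was seen, was at 0.652 (0.485 to 0.861). Myog, which drives differentiation, was at 3.52 (1.94 to 6.15) from 19 and 44 UMIs, Tbx1 at 3.40 (2.04 to 5.50) and Eya4 at 2.56 (1.91 to 3.39). In the same spots 4 of 7 fibroblast markers were at least 2-fold higher, their summed level being 2965 against 1326 CPM, and none of 9 neuron markers was, at 3806 against 5158 CPM. Their part in the list values was not tested.

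Across 1992 spots and 12944 genes with at least 50 UMIs, the genes with counts most like Myh3 outside the members were H19, Tnnc2, Tnnt3, Ttn, Tnni2, Gm42418, Pgam2, Myl1, Tpm2 and Tpm1, with Pearson r from 0.286 to 0.230. For Myh8 they were Gm42418, H19, Mylpf, Tnnt3 and Tnni2, with r from 0.329 to 0.294. The r of Myh3 with Myh8 was 0.257 over spots and 0.808 over the 48 second segments. The median r of all genes with Myh3 was 0.0095 over spots and 0.254 over second segments, and with Myh8 0.0107 and 0.0970. The spots share 1 library and differ in depth, so these values, weak over spots, are a description.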

How the data were processed

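SPARC-seq gives RNA UMIs and ATAC fragments for the same spots, here from 1 library of each kind. Per the file headers, the deposited counts (UMI counts per gene and cut-site counts per peak) and the fragment list were made by the authors with cellranger-arc-2.0.1 and the 10x mm10 reference, and nothing was normalized. The submitters' processing notes name Seurat 4.0. A spot was kept if 500 to 6000 genes were detected and mitochondrial genes took no more than 20% of its UMIs. The fragment list held 52942843 fragments of 2500 barcodes, of which 47109447 belonged to barcodes of the matrix.

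CPM is UMIs scaled to 1000000 UMIs of the spots concerned. Intervals are exact at 95% (Poisson, Clopper-Pearson, and conditional binomial for ratios) and cover counting error only, and their code was tested on simulated data. With 1 library per assay no test and no p-value was made. Each fragment that touched the 2 kb window centred on a GENCODE start was counted once and scaled by all promoter fragments of the group of spots. A feature needed at least 20 counts. For likeness, counts were scaled to 10000 per spot and logged. Doublets have no meaning for spots and were not called. Python 3.11.15, numpy 2.4.6, scipy 1.17.1, pandas 2.3.3 and pysam 0.24.0 were used.

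The genes named were the members, other myosin heavy chains, 10 genes most like Myh3 and 5 most like Myh8, up to 4 genes of each pathway list past 2-fold by UMIs, and all peaks within 20 kb. A gene that this rule names is not reported here. The members and lists were chosen with earlier results of these data known.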

Additional observations from a re-analysis of the deposited data

Results flagged for a closer look

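The fragment list held 507 barcodes that are not in the count matrix and entered no comparison. Their 5833396 fragments included 7 over the Myh8 start peak. That is 1.2 for each 1000000 fragments (95% exact Poisson interval 0.482 to 2.47), against 66 fragments and 1.40 for each 1000000 (1.08 to 1.78) for barcodes of the matrix, so the rates overlapped.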

How the results depend on the processing

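Of 164 values under alternatives for 47 results, 139 stayed within the interval or tolerance of the value reported, 25 moved and 0 reversed, where reversed means that a ratio whose interval excluded 1 crossed it. Promoter ratios whose interval held 1 did cross it: Myh3 ran from 0.892 to 1.87, Myh1 from 0.897 to 1.77 and Myh2 from 0.573 to 1.63. With Gm42418 and mitochondrial genes left out of the total, Myh3 was at 215 CPM and Myh8 at 1096 CPM. Without the second segment with most Myh UMIs, Myh8 was at 977 CPM. Shares of spots with a UMI follow depth: thinned to 1000 UMIs they were 16.5% for Myh3 and 56.2% for Myh8, and unthinned 47.4% and 91.6%. The RNA ratio was 4.93 for Myh3 and 4.61 for Myh8 with the highest 5% of spots by sarcomere CPM, and 3.47 and 3.06 with the highest 20%. The 3 second segments with most Myh UMIs held 23.6% of them and the 10 with most 51.0%. Ranked over second segments, 2 of the 10 genes most like Myh3 and 0 of the 5 most like Myh8 stayed among the first. No kept spot lacked a sarcomere UMI, so the comparison against such spots gave no value. No paired analysis was possible because each assay has 1 library, and leaving out a replicate does not apply. Promoter counts of 5 to 31 fragments in the sarcomere-rich spots limit what could be detected there.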
